A study of Homo sapiens with 11 samples.

Results

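The genes described here encode guidance cues and their receptors: semaphorins with their plexin and neuropilin receptors, Slits with Robos, and netrins with theirs. Members were every gene of the count tables whose symbol was SEMA, ROBO or NTN followed by a digit, was SLIT1, SLIT2 or SLIT3, began with PLXN or UNC5, or was NRP1, NRP2, NEO1 or DCC, with antisense genes and pseudogenes left out. The rule found 50 of 26485 genes. It used symbols and no measured value, but was chosen with earlier results of these data known. Of the 50, 20 were semaphorins, 11 were plexins or neuropilins, 7 were Slits or Robos and 10 were netrins or netrin receptors. UNC50 and UNC5CL, whose symbols begin with UNC5, were placed in none of these groups.

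RNA was sequenced from Caki-1-SR cells, a sunitinib-resistant subline of Caki-1, a human clear cell renal cell carcinoma (ccRCC) line that came from a skin metastasis. The study names clone 1 of this subline for the 24 h treatment. The medium of the Caki-1-SR cells held 1 µM sunitinib, so every library shares that drug. The treated cells received ODC, a combination of Rapta-C, an organometallic ruthenium drug (2 µM), the EGFR inhibitor erlotinib (1 µM), the antidiabetic metformin (1 µM) and the plant lactone parthenolide (5 µM). The control cells, CTRL, are called untreated in one place of the study and sham-treated in another. There were 3 CTRL and 3 ODC libraries at 24 h, and 2 CTRL and 3 ODC libraries at 2 h. The sample names carry a different month at each time, without saying what was done in it, so the effects of time and of month cannot be told apart. No source used here says whether the libraries of a group came from separate cultures, so p-values measure only the spread between these libraries.

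Guidance cues are secreted or membrane-bound ligands best known for steering axons, and many also act on the movement, adhesion and vessel recruitment of epithelial and tumour cells. Semaphorins signal through plexins, which act on small GTPases, and the secreted class 3 semaphorins mostly need a neuropilin as a co-receptor. Slits bind Robo receptors with heparan sulphate as a helper, and netrins bind DCC, neogenin (NEO1) and the UNC5 receptors.

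Totals per library lay between 17785229 and 20882856 counts at 24 h, and the 2 h libraries held 25782895 to 31118349 counts. Levels are CPM, a gene's counts relative to those of its library, with library sizes scaled by trimmed mean of M-values factors, separately at 24 h and 2 h. A count of 0 allows up to 3 counts, or 0.0964 to 0.169 CPM, in one library, for counting error only. Markers of a renal epithelial carcinoma line summed to 6382 to 7009 CPM in CTRL and 5265 to 6224 CPM in ODC at 24 h, without overlap, with CA9, PAX2 and KRT19 at or under 3 counts. At the same time the leukocyte markers summed to 5.82 to 6.11 CPM in CTRL and 7.46 to 7.98 CPM in ODC, also without overlap. Of these 5 markers, only CD68 had more than 3 counts in CTRL, and only CD14 and CD68 in ODC. PTPRC, CD3E and LYZ were at or under 3 counts in both groups. Sums of the other lists overlapped between the groups at 24 h. They reached at most 1.83 CPM for endothelial, 169 CPM for fibroblast and 18.9 CPM for neuronal markers. In both groups 5 of the 7 endothelial markers, VWF included, and 5 of the 7 fibroblast markers, DCN included, were at or under 3 counts. So were 3 of the 7 neuronal markers in CTRL and 4 in ODC, RBFOX3 included. Of the fibroblast list only COL1A1 and PDGFRB had more. The part of these differences in the results was not tested, and in bulk RNA fewer cells of a type and less RNA per cell cannot be told apart. At 2 h, CTRL replicate 1 stood apart: all 7 fibroblast markers had more than 3 counts there, against 2 to 5 in the other 2 h libraries, and they summed to 327 CPM against 137 to 169.

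At 24 h, 7 of the 32 members tested differed between ODC and CTRL at an unadjusted p under 0.05. Over all genes tested the share was 12.2% (7.2% higher, 5.04% lower). NEO1, ROBO1, PLXNB3, PLXNB2 and UNC5C, all receptors, were higher with ODC. SEMA3A, a secreted ligand, and NRP1, the co-receptor it binds, were lower. None passed Benjamini-Hochberg adjustment over all genes with edgeR's quasi-likelihood test, where the smallest adjusted p of a member was 0.0592. DESeq2 gave 5 members an adjusted p under 0.05 (NEO1, ROBO1, PLXNB3, SEMA3A and PLXNB2). The share of all genes that DESeq2 called after adjustment is not given here, so this count has no background. At 2 h, where CTRL had 2 libraries, none of these 7 members had an unadjusted p under 0.05.

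Promoter stretches are shown for the 3 members with the smallest p at 24 h, since these moved in one direction. They come from the RefSeq promoter table (GRCh38.p14), run 5′ to 3′ on the gene's own strand, and end at the RefSeq start site or before the first base that GENCODE places in an exon. Capitals mark an NF-kB-like pattern (GGG, any 5 bases, then CC) or a GC box (GGGCGG) on either strand. NEO1 is shown at chr15:73051652-73051709 (plus strand), 58 bases that lie before its first annotated exon. For ROBO1 (minus strand) the table has 2 start sites, at chr3:79767999-79768248 and chr3:79019460-79019709. PLXNB3 is shown at chrX:153763999-153764195 (plus strand).
NEO1: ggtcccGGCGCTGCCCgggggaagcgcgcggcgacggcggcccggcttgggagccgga
ROBO1 start 1: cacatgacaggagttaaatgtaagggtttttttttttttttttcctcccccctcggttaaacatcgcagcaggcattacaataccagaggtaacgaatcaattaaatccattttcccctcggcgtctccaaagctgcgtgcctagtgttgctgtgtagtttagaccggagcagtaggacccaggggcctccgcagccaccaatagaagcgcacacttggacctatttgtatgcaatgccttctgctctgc
ROBO1 start 2: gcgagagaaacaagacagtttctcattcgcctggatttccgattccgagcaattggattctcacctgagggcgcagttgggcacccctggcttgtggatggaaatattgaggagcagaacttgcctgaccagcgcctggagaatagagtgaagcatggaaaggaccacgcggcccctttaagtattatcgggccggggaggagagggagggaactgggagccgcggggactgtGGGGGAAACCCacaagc
PLXNB3: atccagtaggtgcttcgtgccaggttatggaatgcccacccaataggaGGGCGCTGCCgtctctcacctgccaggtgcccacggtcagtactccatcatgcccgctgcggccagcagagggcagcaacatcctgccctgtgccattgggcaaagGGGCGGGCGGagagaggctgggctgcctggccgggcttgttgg

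These stretches held 1 NF-kB-like match in NEO1, none at the first ROBO1 start, 2 overlapping ones at the second and 1 in PLXNB3, which also held 2 overlapping GC boxes. The letters TGACNNNGC, the core of the antioxidant response element, were in none of them. Over the 250 bases before each start, 72.1% of the 43 start sites of members tested at 24 h held the NF-kB-like pattern, against 54.4% of the 35116 start sites in the table. The shares were 69.8% and 42.6% for GGGCGG, and 4.65% and 10.9% for TGACNNNGC. The fixed letters of the NF-kB-like pattern and of GGGCGG are all G or C. G and C made up 71.6% of these 250 bases in NEO1, 64.4% in PLXNB3, and 48.0% and 56.8% at the ROBO1 starts. The median over all start sites, which include those of genes not tested, was 58.0%. The part of base composition and of this unlike background in the shares was not tested. Of the 32 members tested at 24 h, 27 had an entry. A match describes letters and is not a binding site.

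A filter on low counts kept 32 of the 50 members at 24 h and 36 at 2 h, and the counts below refer to these. ROBO2, SEMA3B, SEMA3D and UNC5A passed at 2 h only. Neither time kept DCC, NTN3, NTN5, PLXNA4, ROBO4, SEMA3G, SEMA4G, SEMA5B, SEMA6D, SLIT1, SLIT3, UNC5B, UNC5CL or UNC5D. DCC, the best known netrin receptor, had 0 counts in all 11 libraries, as did NTN5 and UNC5D. The 14 members together had 54 counts, spread over 10 of them, in CTRL replicate 1 at 2 h, and 5 to 28 counts in each of the other 10 libraries.

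Compared per kilobase of canonical transcript, the CTRL cells at 24 h expressed NRP1 at 69.0 ± 17.9 CPM per kb (SD, n = 3), PLXNB2 at 57.0 ± 11.8 and SEMA7A, a lipid-anchored semaphorin, at 51.7 ± 16.4. SEMA4B followed at 36.7 ± 6.31, UNC50 at 35.9 ± 2.16 and the secreted SEMA3C at 34.6 ± 4.24 CPM per kb. Neighbours in this order overlapped, down to SEMA3C. The next member, PLXNA1, was at 23.8 ± 2.25 CPM per kb and did not overlap with SEMA3C. ROBO1 was at 6.84 ± 0.269, SLIT2 at 2.36 ± 0.250 and NEO1 at 2.00 ± 0.172 CPM per kb. At the low end, UNC5C, SEMA4A and PLXNA2 lay at 0.251 ± 0.0921, 0.249 ± 0.0765 and 0.232 ± 0.143 CPM per kb and overlapped. SEMA5A was at 0.169 ± 0.0392 and PLXNC1 at 0.0617 ± 0.0181 CPM per kb, apart from each other.

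**Figure D1:**
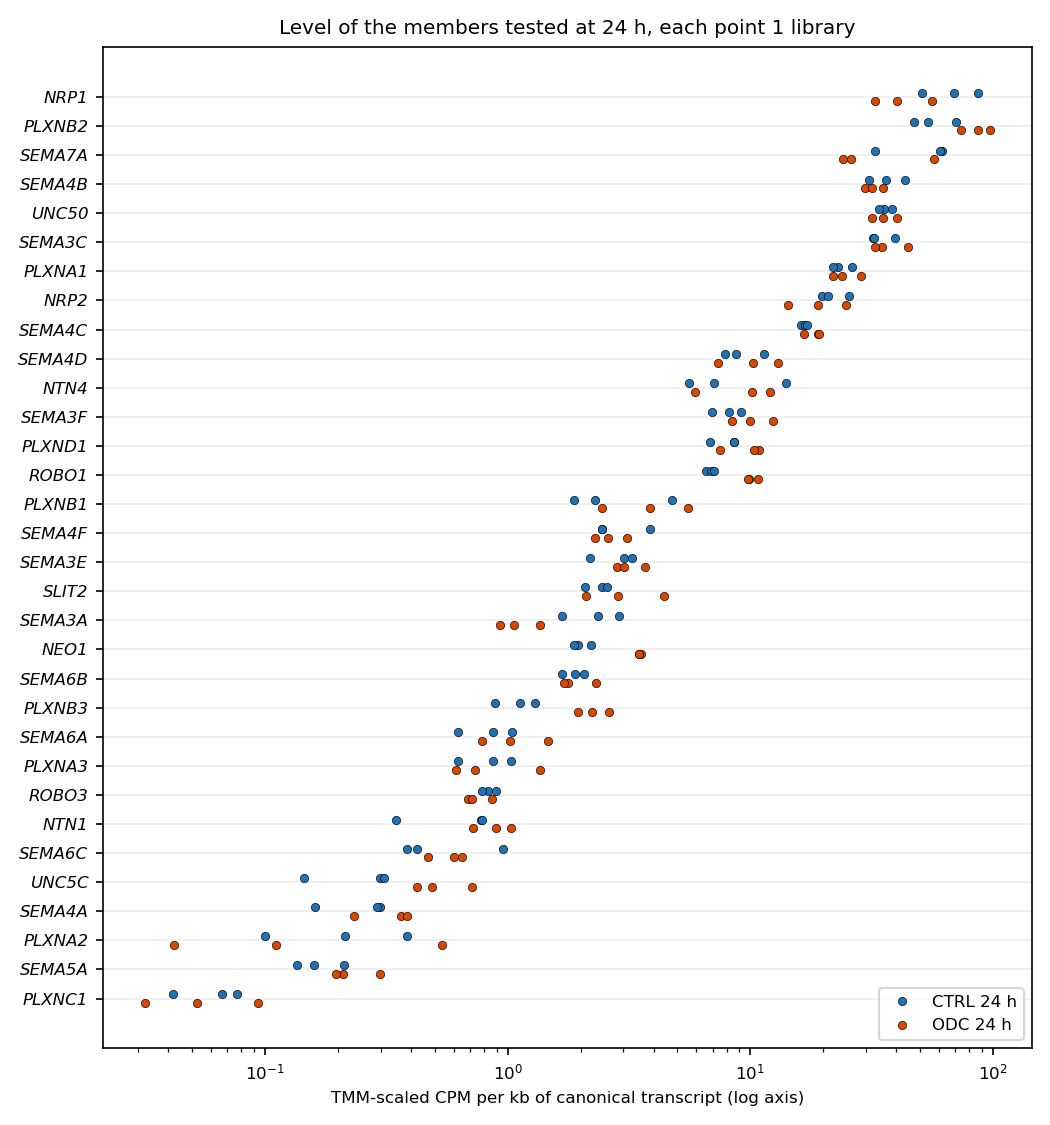
Level of the 32 members tested at 24 h, in scaled CPM per kb of canonical transcript on a log axis, with each point a library (3 CTRL, 3 ODC) and members ordered by their CTRL mean. Levels ran from 0.0617 CPM per kb for PLXNC1 to 69.0 for NRP1, and the CTRL and ODC points of most members overlapped.

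Of the 32 members tested at 24 h, 5 were higher and 2 lower at an unadjusted p under 0.05, which is 21.9% against 12.2% of the 12689 genes tested. The background was 7.2% for higher and 5.04% for lower. An adjusted p under 0.05 was reached by 0.189% of all genes and by none of the members. Estimates were above 0 for 21 members and below 0 for 11, with 50.1% of all genes above 0. Their median log2 fold change was 0.12, against 0.00089 over all genes. The groups did not overlap for 6 of the 32, against 17.9% of all genes, a share near the background. Of these, 5 were higher (9.42% of all genes) and 1 was lower (8.51%). PLXNB3, SEMA3A and UNC5C also changed at least 2-fold, which 2.35% of all genes did at that p.

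Among the netrin receptors, NEO1, which also binds repulsive guidance molecules, was at 13.8, 15.6 and 13.3 CPM in the CTRL libraries at 24 h and at 24.7, 25.1 and 24.8 CPM in the ODC libraries. All 3 ODC libraries were above all CTRL libraries, and the ODC libraries lay close together. The means were 14.2 ± 1.22 and 24.9 ± 0.224 CPM (SD, n = 3 each), a log2 fold change of 0.81 (SE 0.12, 95% interval 0.54 to 1.07). The unadjusted p was 0.000126, and with Benjamini-Hochberg adjustment edgeR's quasi-likelihood test gave 0.0592. At 2 h, NEO1 was at 22.4 and 20.9 CPM in CTRL and 22.0, 20.9 and 22.6 CPM in ODC, where the groups overlapped (log2 fold change 0.01, 95% interval -0.25 to 0.27).

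UNC5C, a netrin receptor linked to repulsion and to cell death without ligand, was at 1.39, 2.87 and 2.99 CPM in CTRL and 4.72, 6.86 and 4.09 CPM in ODC at 24 h. The groups did not overlap, but CTRL replicate 1 rested on 29 counts. The log2 fold change was 1.11 (SE 0.33), with p-values from edgeR's quasi-likelihood test of 0.0102 unadjusted and 0.239 adjusted. In the promoter stretch of UNC5C, 78 bases lie in GENCODE exons of both UNC5C and the antisense gene UNC5C-AS1. Shared exon bases outside that stretch were not counted, so the full overlap of these genes is not given here. Whether counting used the strand is not given in the sources used here. At 2 h UNC5C was at 5.38 and 6.03 CPM in CTRL and at 5.02, 5.60 and 11.2 CPM in ODC. The highest ODC library lay well above the other 4.

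The netrin ligands did not pass the test at 24 h. NTN1, the secreted netrin that attracts or repels according to the receptor, was at 2.07, 4.64 and 4.70 CPM in CTRL and 4.33, 6.16 and 5.33 CPM in ODC, overlapping (log2 fold change 0.47, 95% interval -0.27 to 1.22). NTN4, a basement membrane netrin, had a log2 fold change of 0.07 (95% interval -0.78 to 0.92). The 4 tested netrins and receptors were all above 0, where 50.1% of all genes were, and their median log2 fold change was 0.64.

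Of the Robos, ROBO1, a receptor for SLIT2, was at 45.4, 47.6 and 49.1 CPM in CTRL and 68.2, 67.5 and 74.8 CPM in ODC at 24 h. The groups lay far apart compared with the spread within them. The means were 47.4 ± 1.87 and 70.1 ± 4.03 CPM (SD, n = 3 each), a log2 fold change of 0.57 (SE 0.091, 95% interval 0.36 to 0.78). The unadjusted p was 0.000264 and the adjusted p 0.0712 with edgeR's quasi-likelihood test. At 2 h, ROBO1 was at 52.6 and 53.2 CPM in CTRL and at 51.3, 48.0 and 65.4 CPM in ODC, where the groups overlapped.

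ROBO3, a divergent Robo, did not pass at 24 h (log2 fold change -0.16, 95% interval -0.60 to 0.29). SLIT2, a Robo ligand and the only Slit tested, was at 16.7, 19.7 and 20.6 CPM in CTRL and at 22.9, 35.6 and 16.9 CPM in ODC. These groups overlapped, with a log2 fold change of 0.40 (95% interval -0.18 to 0.99). ROBO4, an endothelial Robo, was not tested at either time.

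**Figure D2:**
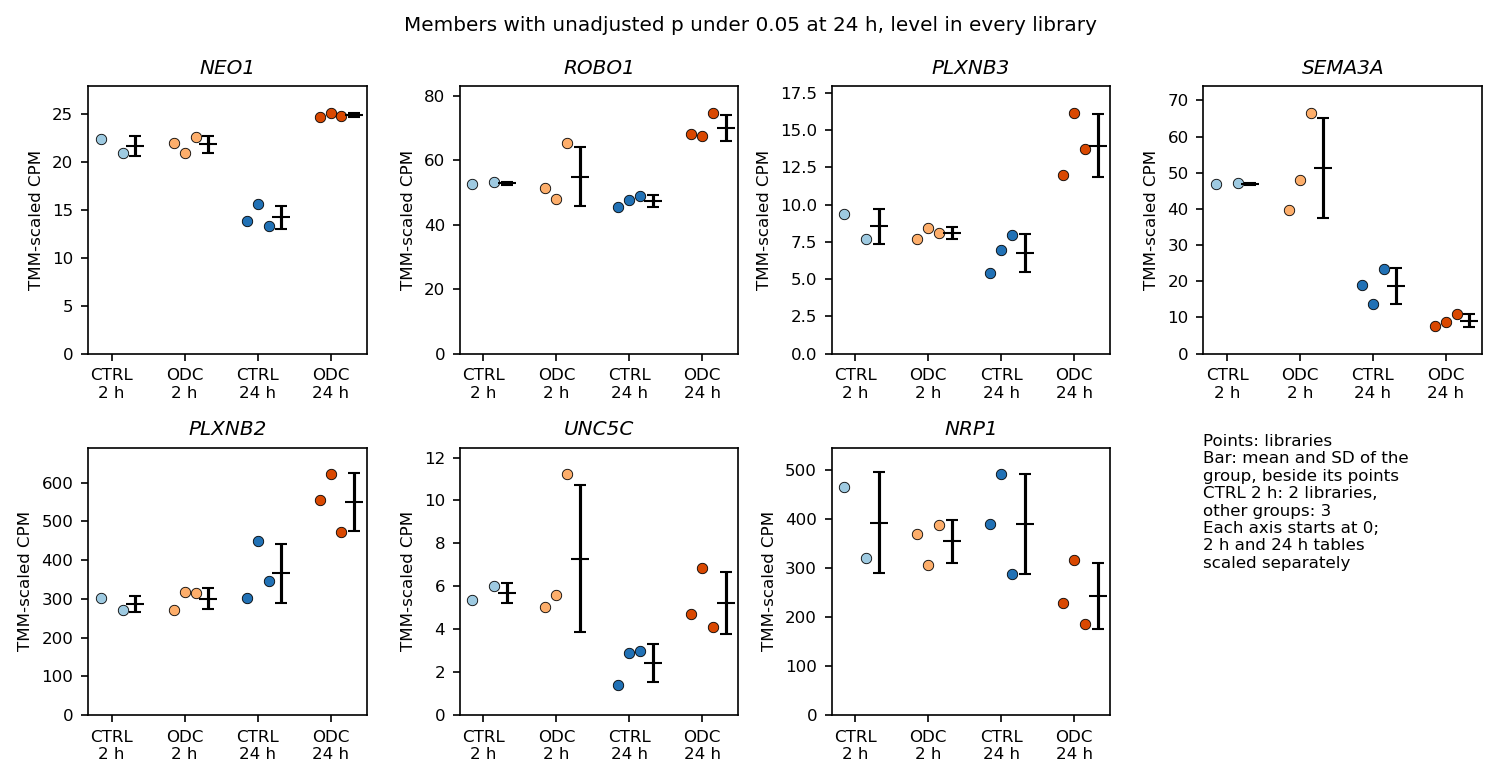
Scaled CPM of the 7 members with an unadjusted p under 0.05 at 24 h, on axes that start at 0, in each of the 11 libraries at 2 h and 24 h, with the mean and SD of each group beside its points (CTRL 2 h, n = 2; other groups, n = 3). At 24 h the ODC points of NEO1, ROBO1, PLXNB3, PLXNB2 and UNC5C lie above all CTRL points, those of SEMA3A lie below, those of NRP1 overlap, and at 2 h the groups overlap for all 7.

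Plexins carry the semaphorin signal into the cell. Of the 8 tested at 24 h, 2 were higher with ODC at an unadjusted p under 0.05, against 7.2% of all genes. PLXNB3, a receptor for SEMA5A, was at 5.43, 6.94 and 7.97 CPM in CTRL and 12.0, 16.2 and 13.7 CPM in ODC. Every ODC library was above every CTRL library. The means of 6.78 ± 1.28 and 14.0 ± 2.11 CPM (SD, n = 3 each) gave a log2 fold change of 1.04 (SE 0.19, 95% interval 0.60 to 1.48). Its unadjusted p was 0.000634 and its adjusted p 0.0982 with edgeR's quasi-likelihood test. At 2 h it was at 9.36 and 7.69 CPM in CTRL and 7.69, 8.45 and 8.12 CPM in ODC.

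PLXNB2, a receptor for class 4 semaphorins, was at 302, 449 and 345 CPM in CTRL and 554, 621 and 473 CPM in ODC at 24 h. The lowest ODC library lay just above the highest CTRL library. The log2 fold change was 0.59 (SE 0.16), with p-values from edgeR's quasi-likelihood test of 0.00744 unadjusted and 0.212 adjusted. At 2 h the 5 libraries lay between 270 and 317 CPM.

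The other 6 plexins did not pass at 24 h. PLXND1, a receptor for SEMA3E, was at 47.1, 59.3 and 59.1 CPM in CTRL and 51.8, 74.9 and 71.8 CPM in ODC (log2 fold change 0.26, 95% interval -0.11 to 0.64). PLXNB1, a SEMA4D receptor, had a log2 fold change of 0.40 (95% interval -0.50 to 1.31). For PLXNA1, which pairs with neuropilins, the log2 fold change was 0.07 with a narrower 95% interval of -0.22 to 0.36. The remaining estimates were 0.09 for PLXNA3, -0.0025 for PLXNA2 and -0.08 for PLXNC1, and the 95% interval of PLXNA2 reached from -1.89 to 1.89. PLXNA3 and PLXNC1 each overlap a gene on the other strand, LAGE3 and CEP83, which had up to 571 and 867 counts in a library.

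NRP1, a co-receptor for SEMA3A and for vascular endothelial growth factor, was at 389, 491 and 288 CPM in CTRL and 228, 316 and 185 CPM in ODC at 24 h. The groups overlapped, since the second ODC library was above the third CTRL library. The means were 389 ± 101 and 243 ± 67.0 CPM (SD, n = 3 each), a log2 fold change of -0.68 (SE 0.24), with p-values from edgeR's quasi-likelihood test of 0.0211 unadjusted and 0.295 adjusted. Without CTRL replicate 2 the log2 fold change was -0.48 and the unadjusted p of 0.0777 from that model no longer passed. The same held without ODC replicate 1 (-0.64) or ODC replicate 3 (-0.52). NRP1 was lower with ODC within each of the 3 pairs of adjacent library numbers, and with a block for these pairs, which the labels do not state, edgeR's quasi-likelihood test gave it an adjusted p of 0.00693. With that block 6 of the 32 members passed after adjustment (the 7 but UNC5C), against 5.41% of all genes. NRP2, which favours SEMA3F, had a log2 fold change of -0.18 (95% interval -0.64 to 0.27).

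Of the 14 semaphorins tested at 24 h, SEMA3A alone passed, against 12.2% of all genes in either direction and 5.04% lower. This secreted ligand, which repels axons through NRP1 and class A plexins, was at 19.0, 13.6 and 23.3 CPM in CTRL and 7.52, 8.59 and 11.01 CPM in ODC. All ODC libraries were below all CTRL libraries. The means were 18.6 ± 4.90 and 9.04 ± 1.78 CPM (SD, n = 3 each), a log2 fold change of -1.04 (SE 0.23, 95% interval -1.57 to -0.52). The unadjusted p was 0.00193 and the adjusted p 0.131 with edgeR's quasi-likelihood test. At 2 h, SEMA3A was at 46.8 and 47.0 CPM in CTRL and 39.7, 47.8 and 66.6 CPM in ODC, where the ODC libraries lay on both sides of CTRL.

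Other class 3 semaphorins did not pass. SEMA3F was at 25.1, 33.0 and 29.3 CPM in CTRL and 30.4, 44.5 and 36.0 CPM in ODC, overlapping (log2 fold change 0.35, 95% interval -0.04 to 0.73). SEMA3C and SEMA3E had log2 fold changes of 0.11 and 0.17, with 95% intervals of -0.22 to 0.44 and -0.24 to 0.58.

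The transmembrane semaphorins of classes 4, 5 and 6, several of which also act as receptors, had log2 fold changes between -0.19 for SEMA4B and 0.48 for SEMA5A. SEMA5A, the PLXNB3 ligand, was at 1.59, 1.88 and 2.49 CPM in CTRL and 2.46, 3.51 and 2.31 CPM in ODC, overlapping. SEMA4C had the narrowest interval of these, at 0.13 (95% interval -0.09 to 0.35). The others were at 0.40 for SEMA4A, 0.12 for SEMA4D, -0.13 for SEMA4F, 0.37 for SEMA6A, 0.04 for SEMA6B and -0.04 for SEMA6C. SEMA7A, which binds integrins and PLXNC1, was at 208, 111 and 205 CPM in CTRL and at 88.1, 81.4 and 192 CPM in ODC, overlapping (log2 fold change -0.53, 95% interval -1.37 to 0.30). UNC50, a Golgi protein that is no netrin receptor, was at -0.01.

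At 2 h, 1 of the 36 members tested had an unadjusted p under 0.05, against 2.34% of 13332 genes (0.87% lower). That member was UNC50, at 43.2 and 33.3 CPM in CTRL and 33.3, 30.2 and 24.7 CPM in ODC (log2 fold change -0.38, with edgeR's quasi-likelihood test giving 0.0486 unadjusted). The groups met at 33.3 CPM, and the call was lost without CTRL replicate 1 (log2 fold change -0.18) and without ODC replicate 2 or 3. After adjustment, edgeR's quasi-likelihood test called 0 genes at 2 h (0.0%), while 312 genes were under 0.05 unadjusted, and DESeq2 called no member either. The members lay above 0 in 16 cases and below in 20 (48.2% of all genes were above), with a median of -0.04 against -0.01 over all genes. Without CTRL replicate 1, the library that stood apart, the median was 0.07.

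The receptor UNC5A was the only member whose groups did not overlap at 2 h, against 15.3% of all genes (7.42% lower). Its levels were 0.774 and 0.706 CPM in CTRL and 0.318, 0.518 and 0.518 CPM in ODC, and the test was not passed (log2 fold change -0.71, 95% interval -1.65 to 0.23). SEMA3B, a secreted semaphorin regarded as a tumour suppressor, was at 0.851 and 0.459 CPM in CTRL and 1.02, 0.647 and 1.86 CPM in ODC (log2 fold change 0.84, 95% interval -0.38 to 2.06). SEMA6A was at 7.78 and 9.88 CPM in CTRL and 8.32, 7.12 and 6.49 CPM in ODC (log2 fold change -0.27, 95% interval -0.71 to 0.16). ROBO3 was at 1.74 and 2.26 CPM in CTRL and 1.75, 1.49 and 1.38 CPM in ODC (log2 fold change -0.38, 95% interval -1.01 to 0.26).

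**Figure D3:**
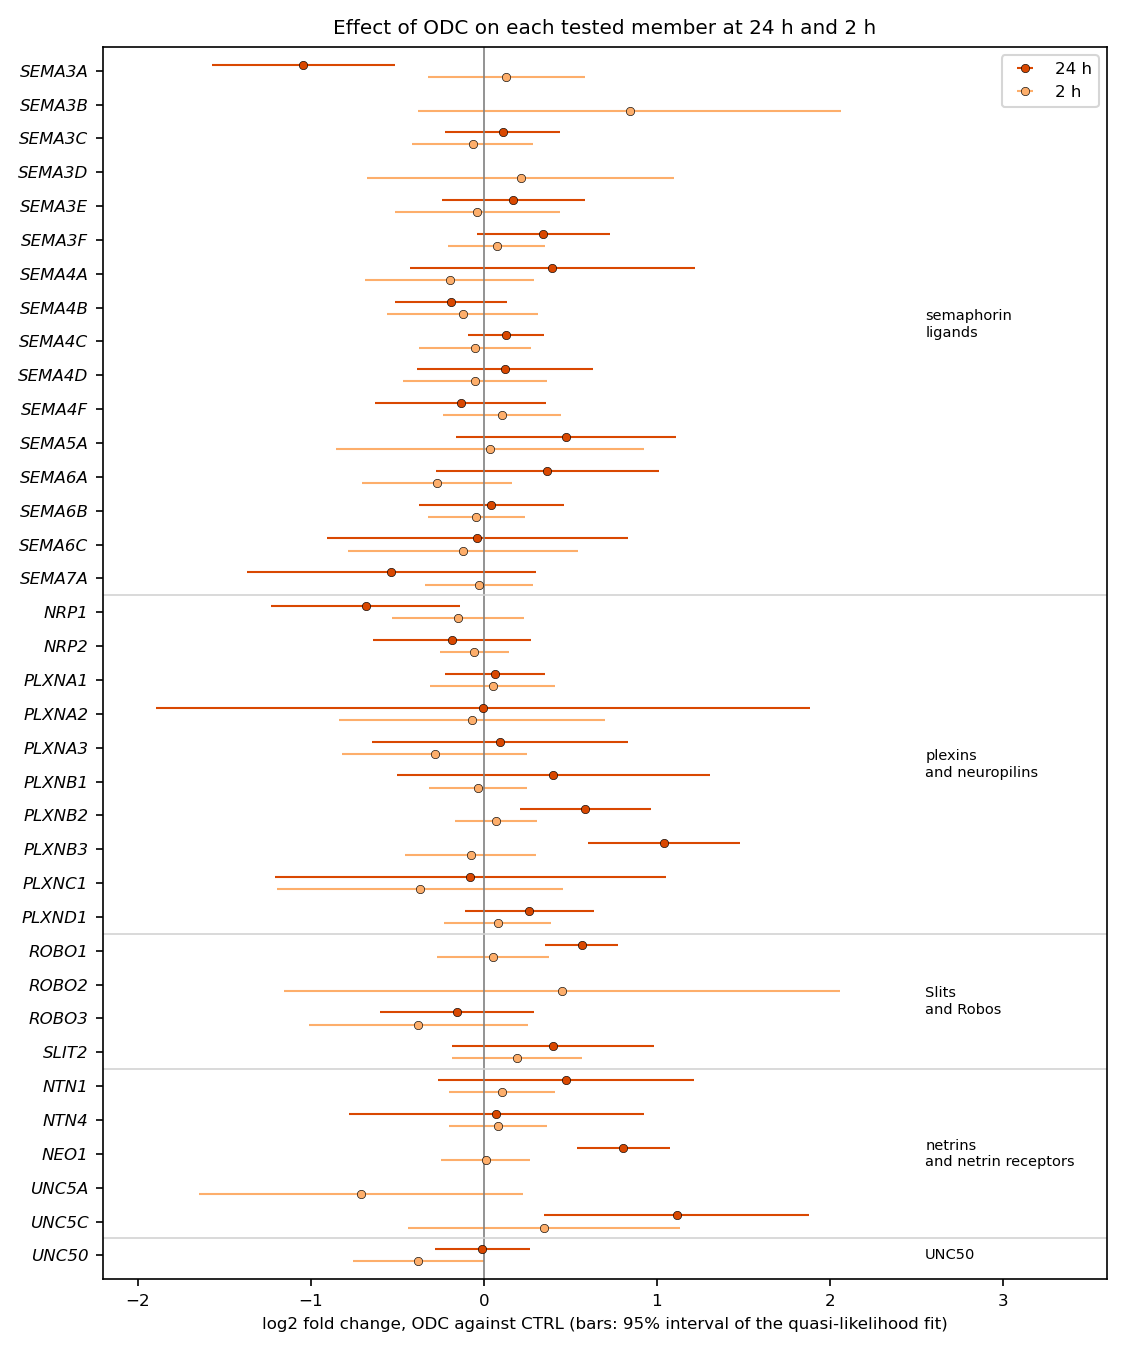
Log2 fold change of ODC against CTRL for the 36 members tested at 2 h, grouped by role, at 24 h (dark, 32 members) and 2 h (light), with bars for the 95% interval of the quasi-likelihood fit. At 24 h the intervals of NEO1, ROBO1, PLXNB3, PLXNB2 and UNC5C lie above 0 and those of SEMA3A and NRP1 below, while at 2 h only that of UNC50 leaves out 0.

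The difference between the effects was tested in one fit of all 11 libraries. An unadjusted p under 0.05 was found for 6 of 36 members, against 5.93% of 13333 genes. The effect of ODC was higher at 24 h than at 2 h for NEO1 (difference on the log2 scale 0.78, SE 0.15), PLXNB3 (1.10, SE 0.25), ROBO1 (0.50, SE 0.17) and PLXNB2 (0.50, SE 0.22). It was lower for SEMA3A (-1.19, SE 0.34) and SEMA3D (-1.36, SE 0.62). Over all genes, 3.17% were higher and 2.77% lower. No member passed after adjustment with edgeR's quasi-likelihood test, against 0.015% of all genes, and NEO1 had the smallest adjusted p of the members, 0.310. DESeq2 called 2 members, NEO1 and PLXNB3, and its share of all genes called is not given here. For UNC5C and NRP1 a difference between the times was not shown. SEMA3D, another secreted class 3 semaphorin, had 15, 8 and 20 counts in CTRL and 7, 8 and 5 in ODC at 24 h, where it was below the filter of the fit at that time. The difference for PLXNB2 missed an unadjusted p of 0.05 in 7 of the 11 fits that left out one library, with values from 0.38 to 0.67.

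Partners of the same pathways were read from lists of general knowledge, which were chosen with earlier results of these data known. Of the 29 tested partners of plexins and neuropilins, 1 was higher and 3 lower at 24 h at an unadjusted p under 0.05, or 13.8%, near the background. L1CAM, an adhesion molecule that joins the NRP1 receptor complex, had a log2 fold change of 1.33 (22.4 ± 3.26 CPM in CTRL, 56.4 ± 29.1 in ODC, SD, n = 3 each). DPYSL3 and DPYSL2, members of the collapsin response mediator family that acts downstream of SEMA3A, were at -0.65 (617 ± 107 and 394 ± 41.4 CPM) and -0.45 (42.6 ± 3.53 and 31.3 ± 6.02 CPM). ARHGEF11, an exchange factor that binds class B plexins, was at -0.25. The median log2 fold change of the list was 0.01.

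Of the 21 tested Slit-Robo partners, 4 were higher and none lower, or 19.0%, against 12.2% of all genes in either direction and 7.2% higher. GPC1, a heparan sulphate proteoglycan that binds Slits, had a log2 fold change of 2.03 (6.98 ± 0.754 CPM in CTRL, 28.5 ± 9.23 in ODC), and was the only gene of the lists to pass after adjustment by edgeR's quasi-likelihood test (adjusted p 0.0292). SDC1, another heparan sulphate proteoglycan, was at 0.44 (220 ± 15.4 and 298 ± 19.2 CPM). SRGAP3, a Robo-binding GTPase activator, was at 1.67 (0.752 ± 0.433 and 2.38 ± 0.0629 CPM), and ENAH, an actin regulator bound by Robo, at 0.40 (94.4 ± 5.68 and 125 ± 8.02 CPM). The median of the list was 0.05.

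Of the 17 tested netrin partners, 2 were higher and 1 lower, or 17.6%, against 12.2% of all genes. They were TRIO, an exchange factor for small GTPases (0.36), FLRT2, an UNC5 ligand (1.11), and NTNG1, a membrane-anchored netrin relative (-0.86), and the list's median was -0.08. Of the 13 tested ephrins and Eph receptors, another guidance family, 2 were higher and 3 lower, or 38.5%, against 12.2% of all genes and 21.9% of the members. Their median was 0.07. EPHA5 was at 1.17 and EFNA1 at 0.96, while EPHA3 was at -1.47 and EFNB2 at -0.56. At 2 h, only GIPC1, a scaffold that binds NRP1, had an unadjusted p under 0.05 in the 4 lists (log2 fold change 0.27).

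**Figure D4:**
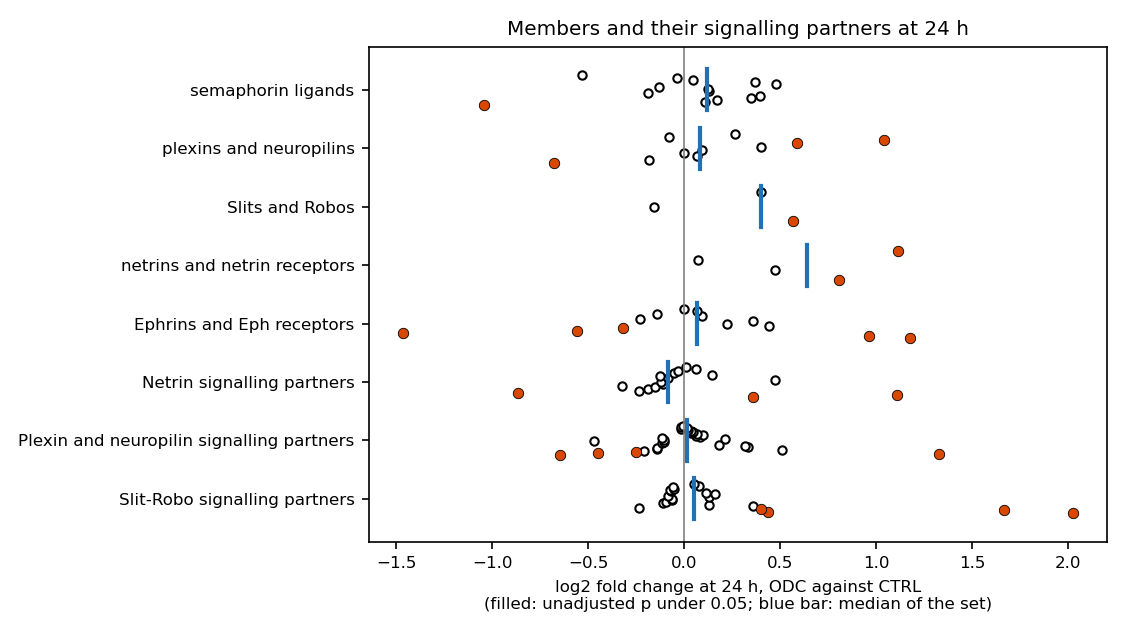
Log2 fold change at 24 h of the tested members, by role, and of the tested genes in the 4 partner lists, with 1 point a gene, filled where the unadjusted p was under 0.05, and a blue bar at the median of each set. The netrin set has its median at 0.64 from 4 genes, and the medians of the 4 partner lists lie between -0.08 and 0.07.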

How the data were processed

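Messenger RNA of Caki-1-SR cells was sequenced in 11 libraries made with a stranded kit. The authors aligned reads to hg38 with STAR and counted them per gene with HTSeq 0.9.1, and the values they deposited are raw counts, in one table per time, without normalization. STAR 2.7.0f is named in the submitters' processing notes, the methods name another release, and the annotation and strand setting are not given in the sources used here. From the counts, ODC was compared with CTRL at each time with edgeR 4.0.16 (R 4.3.3), using glmQLFit in its earlier form, TMM factors and filterByExpr (minimum count 10, minimum total 15). Tests were two-sided, and p-values were adjusted by Benjamini-Hochberg over all genes tested. The 24 h minus 2 h difference was a contrast in a joint fit. Intervals are 95%. The steps were tested on simulated data. Gene lengths and positions came from GENCODE 44 and promoters from RefSeq.

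The members and lists were chosen with earlier results of these data known. Values in every library were given for the 10 members with the smallest p at 24 h and the 5 with the smallest at 2 h and for the difference, and partners were named where p was under 0.05, at most 4 in a list. NTN1, SLIT2, SEMA7A and SEMA3D were given in addition, after their values were seen. Alternatives covered filters, scaling factors, tests (DESeq2 1.42.0 included), leaving out each library, and a block.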

Additional observations from a re-analysis of the deposited data

Results flagged for a closer look

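The effect of ODC differed between the times, at an unadjusted p under 0.05 in the joint fit and not after adjustment with edgeR's quasi-likelihood test, for 6 members. The 24 h minus 2 h difference in log2 fold change was 0.78 for NEO1, 1.10 for PLXNB3, 0.50 for ROBO1 and 0.50 for PLXNB2. It was -1.19 for SEMA3A and -1.36 for SEMA3D. No group had enough libraries for a check of single outlying samples.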

How the results depend on the processing

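At 24 h, the count of 7 members with an unadjusted p under 0.05 was 7 to 10 when one library was left out. The count over all genes moved as well. It was lowest without CTRL replicate 1, at 897 of 12859 genes, with 7 of 32 members. It was highest without ODC replicate 3, at 2006 of 12836 genes, with 10 of 33 members. The 7 became 12 of 32 with a replicate block that paired the libraries numbered next to each other. The labels do not state this pairing. Within the 3 pairs, the libraries' departures from their group means correlated at 0.24, 0.61 and 0.47, each highest with its neighbour. CTRL replicate 1, however, correlated nearly as highly with ODC replicate 3 (0.239) as with its neighbour (0.243). In the fit with the block, 23.6% of all genes had an unadjusted p under 0.05. The 0 members with an adjusted p under 0.05 became 6 with the block (NRP1, NEO1, ROBO1, PLXNB3, SEMA3A and PLXNB2), against 5.41% of all genes. They became 3 without a filter beyond 1 count, 5 with the likelihood ratio test, 5 with DESeq2 and 3 in the joint fit, so that the adjusted calls depend on these choices. Apart from the block, the share of all genes that passed adjustment in these settings is not given here. The cause of this dependence was not tested.

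The median log2 fold change at 24 h was 0.058 to 0.28 when one library was left out, highest without CTRL replicate 2. At 2 h the count of 1 became 0 with a filter of more than 1 CPM in 3 libraries or of at least 10 counts in every library. Upper quartile factors and library size only also gave 0, as did leaving out ODC replicate 2 or 3. In the fits that gave 0, the count over all genes was lowest without ODC replicate 3 (176 of 13240) and highest without ODC replicate 2 (352 of 13214). Without ODC replicate 1 the count stayed at 1 (300 of 13211 genes). Fits that left 1 CTRL library are not counted here. The 2 h median was -0.082 to 0.070 when one library was left out, at 0.070 and 0.067 without CTRL replicate 1 and ODC replicate 1. The adjusted count for the difference between the times was 2 with the likelihood ratio test and 2 with DESeq2, without a share of all genes beside it. None of the 10 members with the smallest p at 24 h, the 5 at 2 h and the 5 for the difference changed direction. With the block, SEMA6C alone of the 32 members tested did, from -0.038 to 0.037. NEO1, ROBO1, PLXNB3, SEMA3A, PLXNB2 and UNC5C kept an unadjusted p under 0.05 at 24 h in every alternative. Adjusted p-values at 24 h ran from 1.24e-05 to 0.295 for NEO1 over these alternatives without the block. Few libraries limit all of these values, and CTRL at 2 h has 2.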

Other observations

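Several members stood at different levels in the CTRL cells of both times, given side by side because the tables were scaled separately and time coincides with the month in the sample names. SLIT2 was at 47.6 CPM at 2 h and 19.0 CPM at 24 h, NTN1 at 15.2 and 3.80 CPM, and SEMA3A at 46.9 and 18.6 CPM. SEMA7A was at 51.1 CPM at 2 h and 175 CPM at 24 h. These members were chosen after their values were seen, and no test was made.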
